A study of Mus musculus with 2 samples.

Results

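The small leucine-rich proteoglycans (SLRPs) described here were 10 genes of the 31054 features counted in the rib repair callus of mice: Dcn (decorin), Bgn (biglycan), Lum (lumican), Fmod (fibromodulin), Ogn (osteoglycin), Aspn (asporin), Omd (osteomodulin), Prelp, Kera (keratocan) and Podn (podocan). They were taken by name from a gene family, with earlier results of these data known. Another 9 genes of the family are not among them and are read as a separate list. Single-cell RNA sequencing on the 10x Chromium platform gave 1 library for each of 2 genotypes at 4 days post injury (4 dpi), each from calluses of 3 pooled animals. Control animals were Sox9:CreER;R26:tdT;Smof/+ and Smo cKO animals were Sox9:CreER;R26:tdT;Smof/f, so both carried the Sox9-driven, tamoxifen-inducible Cre, the tdTomato reporter and at least 1 floxed copy of Smo, the membrane protein that passes on the Hedgehog signal. Animals were 8 to 12 weeks old, of both sexes. Tamoxifen was given 7, 6 and 5 days before a 3 mm piece of rib was removed. The study's text names the Smo cKO animals as recipients, and its legend speaks of the animals without naming a group. Cre is driven by Sox9, so cells that had not expressed Sox9 keep both copies of Smo. With 1 library for each genotype there was no replicate check of any difference between genotypes, no test was made, and genotype and library cannot be told apart. Every interval below covers counting error only.

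SLRPs are secreted matrix proteins built around a run of leucine-rich repeats, most of them carrying glycosaminoglycan side chains. They coat collagen fibrils, set fibril spacing and width, and bind growth factors such as TGF-β in the matrix around cells. Decorin and biglycan carry chondroitin or dermatan sulfate, asporin is their close relative, and lumican, fibromodulin, keratocan, osteomodulin and PRELP form a neighbouring branch in which keratan sulfate chains are common. In skeletal tissue biglycan and osteomodulin are known from bone, fibromodulin from cartilage and tendon, and decorin from fibrous connective tissue.

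Several members are neighbours in the genome (GRCm38, GENCODE vM21). Aspn (chr13:49544443-49567565), Omd (chr13:49582462-49592822) and Ogn (chr13:49608046-49624501) follow each other on the plus strand with the family gene Ecm2 before them, a run of 4 genes over 119.7 kb with 0 other protein-coding genes inside. Dcn (chr10:97479609-97518143), Lum (chr10:97565128-97572703) and Kera (chr10:97606879-97613692) form a second run with Epyc, 4 genes over 202.8 kb. Prelp (chr1:133910304-133921414, minus strand) and Fmod (chr1:134037254-134048277, plus strand) are adjacent protein-coding genes, Podn lies at chr4:108014791-108096445 on the minus strand and Bgn at chrX:73483602-73495933 on the plus strand. The 250 bases before the RefSeq start (GRCm38.p6) are printed for the 3 members of the chromosome 13 run and for Fmod. The 3 members of that run were all higher in the Smo cKO library, and Fmod was lower. Dcn, Lum and Kera of the second run were higher too, Dcn and Lum only slightly. Windows were found for 8 of the 10 members. Capitals mark matches, on either strand, to any of 4 short motifs. The first was TATAAA, the usual form of the TATA box. The second was TGANTCA, bound by AP-1 factors. The third was AACAAT, the core bound by SOX proteins such as Sox9. The last was GACCACCCA, bound by the GLI factors of the Hedgehog pathway.
Aspn, chr13:49544193-49544442, plus strand: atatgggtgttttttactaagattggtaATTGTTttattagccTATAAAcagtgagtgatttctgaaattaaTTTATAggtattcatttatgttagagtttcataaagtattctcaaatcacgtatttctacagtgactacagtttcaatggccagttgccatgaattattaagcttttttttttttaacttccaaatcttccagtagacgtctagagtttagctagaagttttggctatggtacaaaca
Omd, chr13:49582212-49582461, plus strand: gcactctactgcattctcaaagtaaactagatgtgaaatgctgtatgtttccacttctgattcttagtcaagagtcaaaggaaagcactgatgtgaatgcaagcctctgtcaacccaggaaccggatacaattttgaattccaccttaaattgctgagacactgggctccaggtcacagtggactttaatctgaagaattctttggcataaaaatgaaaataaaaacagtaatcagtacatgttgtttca
Ogn, chr13:49607765-49608014, plus strand: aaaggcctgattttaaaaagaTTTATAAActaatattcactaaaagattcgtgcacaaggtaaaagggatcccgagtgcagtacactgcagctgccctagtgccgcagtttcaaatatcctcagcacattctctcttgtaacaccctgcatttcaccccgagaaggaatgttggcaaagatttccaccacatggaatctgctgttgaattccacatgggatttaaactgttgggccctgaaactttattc
Fmod, chr1:134037004-134037253, plus strand: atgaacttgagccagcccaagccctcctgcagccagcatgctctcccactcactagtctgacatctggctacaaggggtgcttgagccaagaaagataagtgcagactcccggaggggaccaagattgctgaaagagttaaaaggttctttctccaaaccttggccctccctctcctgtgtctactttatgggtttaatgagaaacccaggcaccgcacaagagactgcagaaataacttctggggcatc
The Aspn window held 2 TATAAA and 1 AACAAT matches and the Ogn window 2 overlapping TATAAA matches, while the Omd and Fmod windows held 0 of any of the 4 motifs. In Aspn the TATAAA matches lay 207 to 202 and 178 to 173 bases before the start. In Ogn they lay 229 to 222 bases before it. Whether these matches act as TATA boxes was not tested. Of 32851 windows of the same length, 12.4% held TATAAA, 6.75% TGANTCA, 9.42% AACAAT and 0.225% GACCACCCA. GC content was 30% for Aspn, 38.4% for Omd and 42% for Ogn, and 51.2% for Fmod, against a median of 52.4% over all windows. Among the windows not printed, that of Kera held 2 AACAAT matches and that of Prelp 1, and those of Bgn and Podn held 0 of any motif. Their GC content was 42.4% for Kera, 55.6% for Prelp, 64.4% for Bgn and 78% and 64% for 2 windows of Podn. Whether motifs or GC content go with the direction of the difference was not tested.

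Cells with at least 200 detected genes and under 10% mitochondrial UMIs were kept, 10057 of 10747 barcodes in the Control library and 9507 of 10512 in the Smo cKO library. A UMI (unique molecular identifier) marks 1 captured RNA molecule, and the kept cells held 104189394 and 110863278 UMIs. Classes were assigned to each cell from the summed UMIs of marker genes, among which none of the 10 members was counted. There were 6536 Control and 5323 Smo cKO connective-like cells, hematopoietic-like cells 2486 and 2789, muscle-like 195 and 425, endothelial-like 62 and 65, mural-like (cells around vessels) 53 and 58 and epithelial- or mesothelial-like 11 and 29. All 13 connective markers were detected in connective-like cells of both libraries, at 35703 and 31289 CPM (UMIs of a gene per 1000000 UMIs) in sum. Their hematopoietic markers summed to 74.7 and 80.8 CPM. The cells were gated on these same markers, so the sums describe the classes and are no separate support for them. Connective-like cells were deeper in the Smo cKO library, with a median of 13848 UMIs against 10962.5. Of the kept barcodes, 599 occurred in both libraries. In 482 of these the smaller total was under 3% of the larger. Values without the barcodes kept in both are given for the sum and for some members in connective-like cells. All other results include them. Over all kept cells Smo stood at 17.3 CPM (Control) and 10.7 CPM (Smo cKO). This is a weak check of the labels, since it is not known whether the counted reads lie in the floxed part.

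SLRP RNA was abundant in connective-like cells, and 5 members carried nearly all of it. The 10 genes together took 5093 CPM (95% Poisson interval 5077 to 5108) in Control and 5719 CPM (5703 to 5735) in Smo cKO connective-like cells, against 328 and 388 CPM in hematopoietic-like cells. Bgn alone gave 45.9% and 43.4% of the SLRP UMIs of the Control and Smo cKO connective-like cells, Dcn 21.2% and 19.8%, Aspn 17.6% and 21.9%, Lum 8.02% and 7.73% and Ogn 4.00% and 4.95%. Since a UMI counts a molecule and not a length of RNA, these shares are shares of captured molecules. Levels of the 10 members spanned more than 3 orders of magnitude, and neighbouring members in the order had counting intervals that did not overlap in either library.

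Among the chondroitin and dermatan sulfate members and their relative asporin, Bgn stood at 2336 CPM in Control and 2482 CPM in Smo cKO connective-like cells, a log2 difference of 0.09 (95% interval 0.08 to 0.10). Dcn stood at 1078 and 1135 CPM, a log2 difference of 0.07 (0.06 to 0.09). The median gene at 50 CPM or more was itself higher by 0.06 on the log2 scale in the Smo cKO library. Both genes thus lay close to the bulk of genes over all connective-like cells. Within ranges of detected genes per cell, described below, Dcn was higher by 0.14 to 0.42. Aspn, which binds collagen and TGF-β and whose core protein has a run of aspartates, went from 897 to 1251 CPM, a log2 difference of 0.48 (0.47 to 0.49). Over all connective-like cells Aspn was thus below Dcn in the Control library and above it in the Smo cKO library.

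In the keratan sulfate branch, Lum was at 408 CPM in Control and 442 CPM in Smo cKO connective-like cells (log2 0.11, 0.09 to 0.14). Fmod, a regulator of fibril growth, was lower in the Smo cKO library, at 95.3 against 131 CPM (log2 -0.46, -0.50 to -0.42). Prelp, a heparin-binding member that anchors matrix to basement membranes, was at 23.7 and 19.1 CPM (log2 -0.31, -0.40 to -0.21). The bone-associated Omd was at 2.12 and 3.97 CPM (log2 0.91, 0.64 to 1.18), from 179 and 329 UMIs. Kera, best known from the cornea, was at 0.745 and 1.30 CPM, from 63 and 108 UMIs. The branch therefore held members on both sides of 0.

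Ogn, also called mimecan, was at 204 CPM in Control and 283 CPM in Smo cKO connective-like cells (log2 0.47, 0.44 to 0.50). Podn, a member with a longer repeat domain, was at 12.1 and 6.66 CPM (log2 -0.86, -1.01 to -0.71). The 3 neighbours on chromosome 13 (Aspn, Omd and Ogn) were all higher in the Smo cKO library. Their neighbour Ecm2 was at 27.5 and 33.4 CPM (log2 0.28, 0.20 to 0.36). The other run of neighbours was higher too, Dcn by 0.07, Lum by 0.11, Kera by 0.81 and Epyc by 0.84 on the log2 scale. The median gene at 50 CPM or more was higher by 0.06. Dcn and Lum lay near that median. Kera (interval 0.35 to 1.28, from 63 and 108 UMIs) and Epyc lay further above it. A level above the median was thus also seen outside the chromosome 13 run, though for Kera from few UMIs. The adjacent Prelp and Fmod were both lower over all connective-like cells. In cells with at most 2000 genes, the study's own limit, both were higher in the Smo cKO library instead, Fmod by 1.10 and Prelp by 0.45 (0.15 to 0.75) on the log2 scale.

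**Figure D1:**
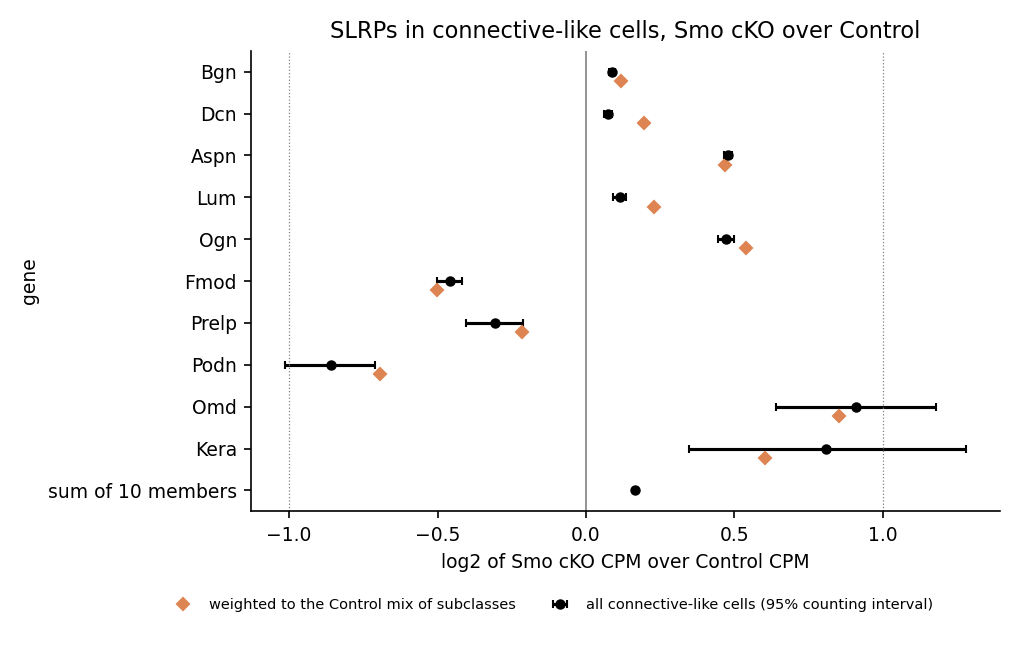
Log2 of the Smo cKO over the Control level of each SLRP in connective-like cells, with 95% counting intervals as bars (black) and the value after weighting both libraries to the Control mix of connective subclasses (orange). Aspn, Ogn, Omd and Kera sit right of 0 and Fmod, Prelp and Podn left of it, and none of the points lies past the dotted lines at 2-fold.

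By the size rule used in place of a test, 6 members reached 50 CPM in either library and 0 of them differed 2-fold, where 23 of all 2567 genes at that level did (0.896%). A count of 0 is therefore near the background. The sum of the 10 members was higher by 0.17 on the log2 scale in the Smo cKO library (0.16 to 0.17). Leaving out the barcodes kept in both libraries gave 0.19 for the sum, 0.51 for Aspn, 0.51 for Ogn and -0.41 for Fmod. Weighting both libraries to the Control mix of connective subclasses left Aspn at 0.47, Ogn at 0.54, Fmod at -0.50 and Podn at -0.69, and moved Dcn from 0.07 to 0.19 and Lum from 0.11 to 0.23.

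The share of connective-like cells with at least 1 UMI gave the same order of members. After each cell was thinned to 2000 UMIs, which left out 500 Control and 301 Smo cKO connective-like cells, Bgn was found in 97.1% and 97.4% of cells and Dcn in 74.5% and 73.8%. Aspn was found in 68.5% of Control and 80.2% of Smo cKO cells, and Ogn in 32.8% and 40.3%. Without thinning, the Aspn shares were 90.7% and 95.4%, at median depths of 10962.5 and 13848 UMIs. Fmod was found in 14.0% and 12.5%, Podn in 3.08% and 2.05% and Omd in 0.464% and 0.996% of thinned cells. Hematopoietic-like cells stand here for the level of free RNA, and whether they make any of these genes was not tested. Their thinned shares were 31.1% and 32.9% for Bgn and 8.71% and 11.2% for Dcn. For Aspn they were 7.38% and 12.7% and for Fmod 1.67% and 1.42%. Their median depths were 2738.5 and 3187 UMIs before thinning. The Aspn share in hematopoietic-like cells was thus also higher in the Smo cKO library, and subtracting the hematopoietic level from each library left the connective log2 difference of Aspn at 0.47.

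Connective-like cells usually held several SLRPs at once. At 5000 UMIs for each cell, the median number of members detected was 4 in 5630 Control cells and 5 in 4676 Smo cKO cells, and 0 cells in either library had none. Across those cells Dcn went with Lum (Spearman's rho 0.58 in Control and 0.61 in Smo cKO) and with Bgn (0.41 and 0.46), while Fmod went with Aspn (0.31 and 0.25). These values are a description over cells of 1 library each, and cells of a library share their preparation.

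Member levels varied among the connective cells, and several members shared the set in which they were highest. Cells were split by 6 marker sets into an Sfrp4 Eln Col14a1 fibroblast set (1490 Control and 747 Smo cKO cells), a Tnc Inhba activated fibroblast set (2118 and 2032), an Acan Col11a1 skeletogenic set (326 and 240), an osteoblast set (50 and 61), a tendon set (292 and 395) and a Serpinb2 Dlk1 set (5 and 69), with 2255 and 1779 cells past no set. These sets are ranges of a continuous score and not cell types, and many cells passed several, 41 of the 50 Control cells of the osteoblast set for example. The Serpinb2 Dlk1 set had too few Control cells to compare.

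Dcn was highest in the Sfrp4 Eln Col14a1 set, at 2660 CPM in Control and 3217 CPM in Smo cKO cells, and lowest in the Tnc Inhba set, at 487 and 628 CPM. Podn followed the same order at its top, with 36.8 and 21.2 CPM in the Sfrp4 Eln Col14a1 set against 4.02 to 13.3 CPM in the tendon, skeletogenic, osteoblast, Tnc Inhba and remaining connective cells of the Control library. Bgn varied least of the abundant members, between 1793 CPM in the Tnc Inhba set and 3310 CPM in the tendon set of the Control library. The tendon set had the most SLRP RNA in all, 9212 CPM in Control and 10165 CPM in Smo cKO cells, and the Tnc Inhba set the least, 3415 and 4289 CPM.

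Aspn was highest in the tendon set, at 2144 and 2722 CPM, followed in both libraries by the skeletogenic set, at 1929 and 1939 CPM. Among the subclasses compared, the order of Aspn and Dcn changed between libraries only in the remaining connective cells. Aspn was at 873 and 1171 CPM there and Dcn at 956 and 1033 CPM. Ogn was also highest in the tendon set, at 594 and 716 CPM. Lum was highest in the osteoblast set, at 1274 and 1477 CPM, and stood at 1063 and 968 CPM in the skeletogenic set. Fmod was highest in the skeletogenic set, at 785 CPM in Control and 445 CPM in Smo cKO cells, with 602 and 346 CPM in the osteoblast set and 461 and 402 CPM in the tendon set. Outside these 3 sets Fmod stayed below 79 CPM. Omd peaked in the osteoblast set, at 33.5 and 50.8 CPM, and Kera in the tendon set, at 9.31 and 13.7 CPM from 33 and 71 UMIs.

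**Figure D2:**
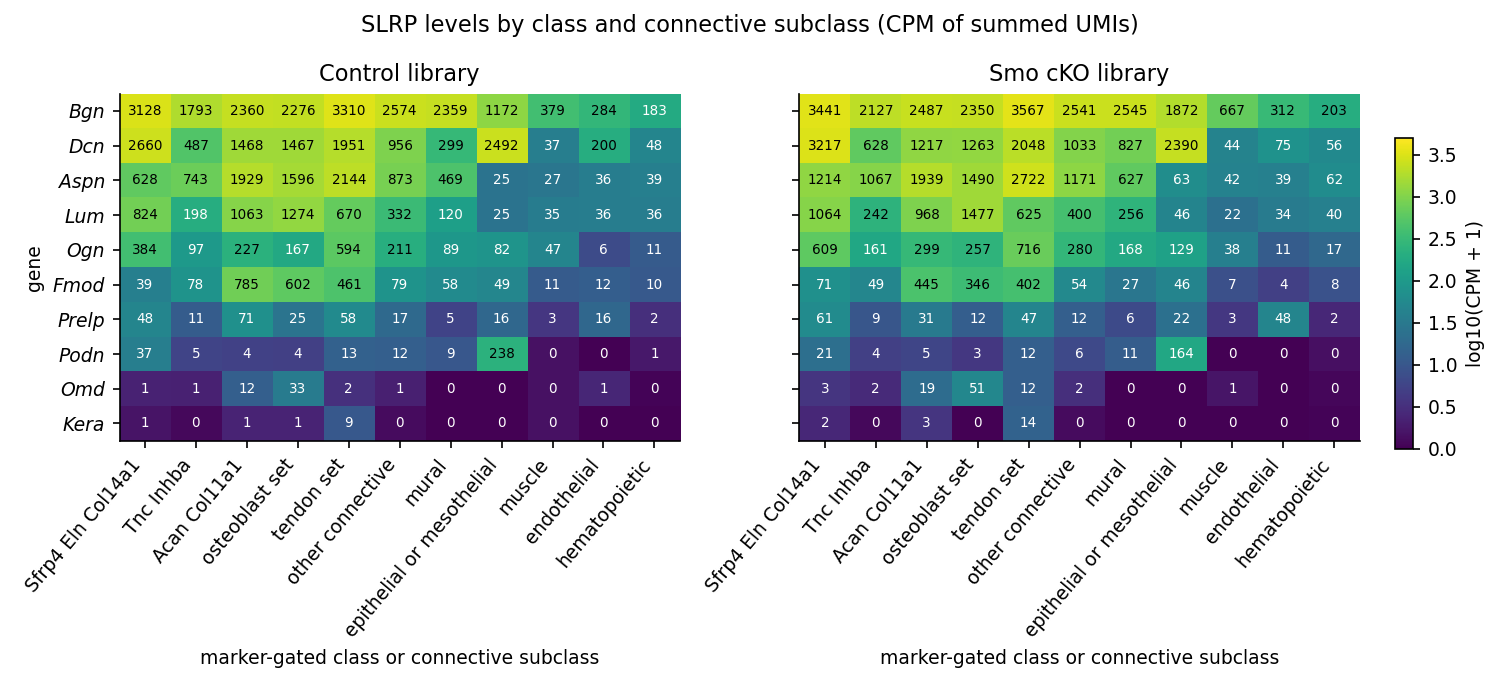
Level of each SLRP (rows, CPM of summed UMIs, printed in each cell and coloured as log10 of CPM + 1) by connective subclass and by other class (columns), in the Control library (left) and the Smo cKO library (right). Bgn and Dcn are high across connective subclasses, Fmod is highest in the Acan Col11a1, osteoblast and tendon sets, and Podn is highest in epithelial- or mesothelial-like cells.

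The genes whose level most resembled that of a member were named over 24 values (classes and connective subclasses by library), among 5065 other genes at 50 CPM or more somewhere. Dcn was most like Ccdc80 (Pearson's r 0.94), Bicc1 (0.94) and Vasn (0.94), and Bgn like Pcolce (0.97), Mrc2 (0.97) and Snhg18 (0.97). Lum was most like Igsf10 (0.96), Dkk3 (0.95) and Fap (0.95), and Fmod like Itga11 (0.92), Acan (0.92) and 1500015O10Rik (0.92). Ogn was most like Fam171b (0.96), Mrc2 (0.94) and Mmp23 (0.94), and Aspn like Postn (0.98), Col8a1 (0.97) and Cthrc1 (0.97). Omd was most like Prss35 (0.94), Sp7 (0.94) and Ibsp (0.94), Prelp like Abi3bp (0.80), Atraid (0.79) and Gja1 (0.74), and Podn like the complement gene C2 (0.97), Rspo1 (0.96) and Ildr2 (0.96). Kera stayed under 50 CPM in every class and was not compared. Postn, Acan, Sp7 and Ibsp are among the markers that defined the classes. Among the classes and sets compared between libraries, Podn reached 50 CPM only in epithelial- or mesothelial-like cells (238 and 164 CPM, from 29 and 67 UMIs). Omd did so only in the Smo cKO osteoblast set (50.8 CPM). How far the matches of these 2 members rest on those few values was not tested. Between members, Aspn and Lum (0.94) and Bgn and Ogn (0.94) were most alike. The 24 values share 2 libraries and the steep contrast between connective and other cells.

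Within subclasses the difference between libraries was not the same for each member. Ogn was higher in the Smo cKO library in 6 of 6 subclasses with at least 10 cells in both, between 0.27 in the tendon set and 0.73 in the Tnc Inhba set on the log2 scale. Omd was higher in 6 of 6, and the largest of its differences, in the tendon set, rested on 8 Control and 62 Smo cKO UMIs (log2 2.41, 1.34 to 3.68). Its interval included 0 in the Tnc Inhba set (0.51, -0.07 to 1.10) and in the osteoblast set (0.60, -0.11 to 1.35), where Omd was highest. Aspn went from 628 to 1214 CPM in the Sfrp4 Eln Col14a1 set (log2 0.95, 0.91 to 1.00) and from 743 to 1067 CPM in the Tnc Inhba set (0.52, 0.50 to 0.54), but from 1929 to 1939 CPM in the skeletogenic set (0.01, -0.04 to 0.05) and from 1596 to 1490 CPM in the osteoblast set (-0.10, -0.21 to 0.01). Aspn was thus closest between libraries where it was already high in the Control library, apart from the tendon set, where it differed by 0.34.

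Over cells of all depths Fmod showed opposite signs among subclasses. It was lower in the Smo cKO library in the skeletogenic set (log2 -0.82, -0.90 to -0.73), the osteoblast set (-0.80, from 449 and 354 UMIs), the Tnc Inhba set (-0.68, -0.76 to -0.59), the remaining connective cells (-0.53, -0.63 to -0.43) and the tendon set (-0.20, -0.29 to -0.10). In the Sfrp4 Eln Col14a1 set it was higher, at 71.1 against 39.0 CPM (0.87, 0.69 to 1.05). Without the barcodes kept in both libraries these values were -0.78, -0.64, -0.57, -0.48, -0.15 and 0.85. Without cycling cells the tendon value turned to 0.04, and the other 5 kept their sign. In cells with at most 2000 genes the opposition was not seen. Fmod was then above 0 in all 5 subclasses with at least 10 cells in both libraries, at 0.86 (0.35 to 1.37) in the Sfrp4 Eln Col14a1 set, 0.82 (0.35 to 1.28) in the remaining connective cells, 0.52 (-0.02 to 1.06) in the skeletogenic set, 0.21 (-0.21 to 0.64) in the tendon set and 0.19 (-0.32 to 0.70) in the Tnc Inhba set. With 1 library for each genotype, these differences between subclasses were not tested.

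Prelp was lower in 5 of 6 subclasses and was the only member that differed 2-fold in a subclass at 50 CPM or more. In the skeletogenic set it stood at 70.8 CPM in Control and 31.0 CPM in Smo cKO cells (log2 -1.19, -1.52 to -0.88), 1 of 7 members at that level there, where 11 of 2661 genes were at least 2-fold lower (0.413%) and 43 differed 2-fold in either direction (1.62%). Without cycling cells its difference there was -0.89, under 2-fold, and Aspn in the Sfrp4 Eln Col14a1 set then passed 2-fold, at 620 and 1262 CPM (log2 1.03). In cells with at most 2000 genes, Prelp in the skeletogenic set rested on 3 and 9 UMIs and was higher in the Smo cKO library. In the other subclasses 0 members at 50 CPM or more differed 2-fold over all cells. Of all genes at that level, 2.72% did in the Sfrp4 Eln Col14a1 set and 1.28% in the Tnc Inhba set. The share was 2.79% in the osteoblast set, 0.924% in the tendon set and 1.14% in the remaining connective cells. Below 50 CPM some members did differ 2-fold, among them Omd in the tendon set and Podn in the remaining connective cells. Podn was lower in 5 of 6 subclasses, with 36.8 and 21.2 CPM in the Sfrp4 Eln Col14a1 set (-0.80, -1.06 to -0.53). In the remaining connective cells its difference was -1.09 (-1.38 to -0.81). Its interval included 0 in the Tnc Inhba set (-0.23, -0.55 to 0.10) and the tendon set (-0.12, -0.69 to 0.45). The osteoblast set held only 3 and 3 Podn UMIs. Dcn and Lum were each higher in 4 of 6 subclasses and lower in 2, and Dcn was lower in the skeletogenic set (-0.27, -0.33 to -0.22) and the osteoblast set (-0.22, -0.33 to -0.10).

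**Figure D3:**
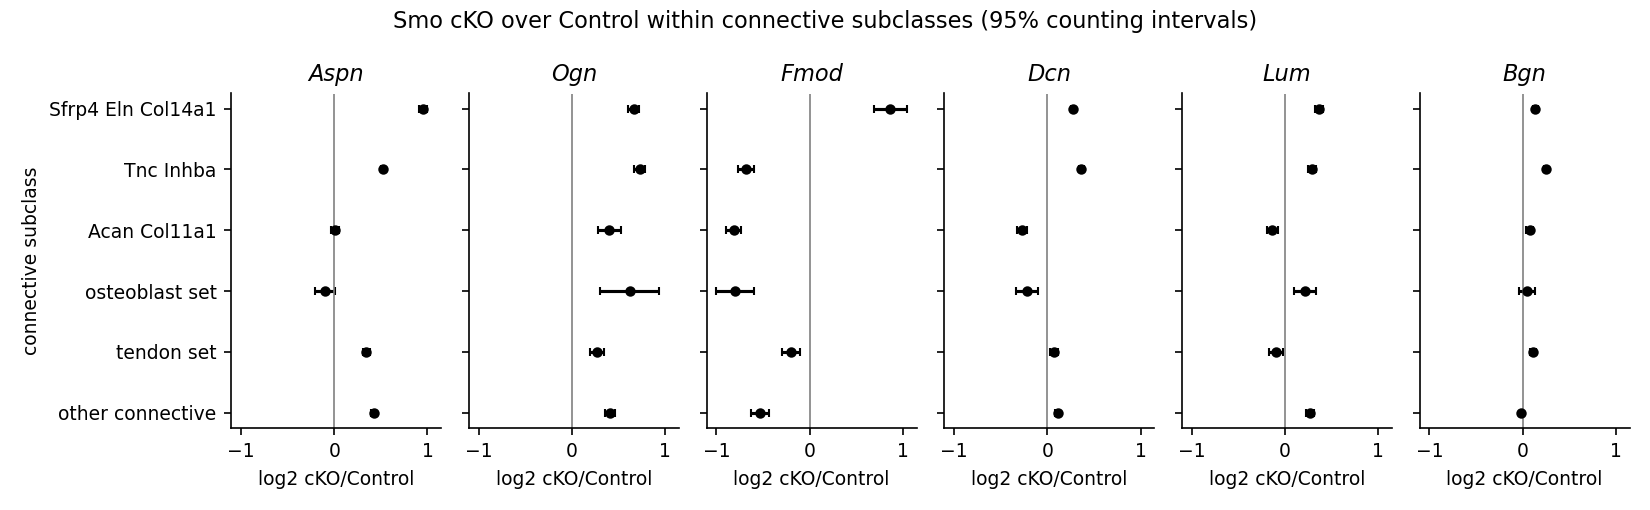
Log2 of the Smo cKO over the Control level of 6 SLRPs within 6 connective subclasses, with 95% counting intervals as bars. Ogn lies right of 0 in all 6 subclasses, Aspn lies near 0 in the Acan Col11a1 and osteoblast sets, and Fmod lies right of 0 in the Sfrp4 Eln Col14a1 set only.

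The level of most members also varied with the number of genes detected in a cell, which bears on the comparison because the study kept cells with 200 to 2000 genes and only 1623 of 6536 Control and 885 of 5323 Smo cKO connective-like cells lie in that range. Dcn was at 2340 and 2582 CPM in those cells and at 645 and 785 CPM in cells with over 5000 genes. Podn went from 36.8 to 5.60 CPM over the same range in the Control library. Bgn went from 2993 to 2076 CPM. The mix of connective sets changed over this range too. In the Control library the Sfrp4 Eln Col14a1 set, highest in Dcn and Podn among the sets, fell from 40.1% to 1.35% of cells. The Tnc Inhba set, lowest in Dcn, rose from 14.1% to 54.1%. What part the mix had in these levels was not tested.

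The difference between libraries moved along the same axis for Aspn and Fmod. Aspn was at 731 CPM in Control and 1762 CPM in Smo cKO cells with 200 to 2000 genes (log2 1.27), and the difference was 0.70, 0.51, 0.40 and 0.23 in the successive bins ending at 3000, 4000 and 5000 genes and in cells with over 5000. Fmod was at 63.4 and 135 CPM in cells with 200 to 2000 genes (log2 1.10) and at 164 and 80.6 CPM in cells with over 5000 genes (log2 -1.02). In cells with up to 2000 genes both differed 2-fold, 2 of 7 members at 50 CPM or more, where 79 of 2540 genes did (3.11%). Without the barcodes kept in both libraries, Aspn stood at 1.31 and Fmod at 1.12 in the first bin, and at 0.03 and -1.13 in the last, which then held 166 and 179 cells. The Sfrp4 Eln Col14a1 set made up 40.1% of Control and 25.5% of Smo cKO cells in the first bin. Within that set and bin, Fmod went from 28.0 to 51.0 CPM and Aspn from 461 to 1103 CPM (log2 1.26, 1.15 to 1.37). Both were higher in the Smo cKO library in all 5 subclasses compared in that bin, Aspn by 0.36 in the tendon set to 1.26 in the Sfrp4 Eln Col14a1 set. What part cell depth had in these differences was not tested.

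**Figure D4:**
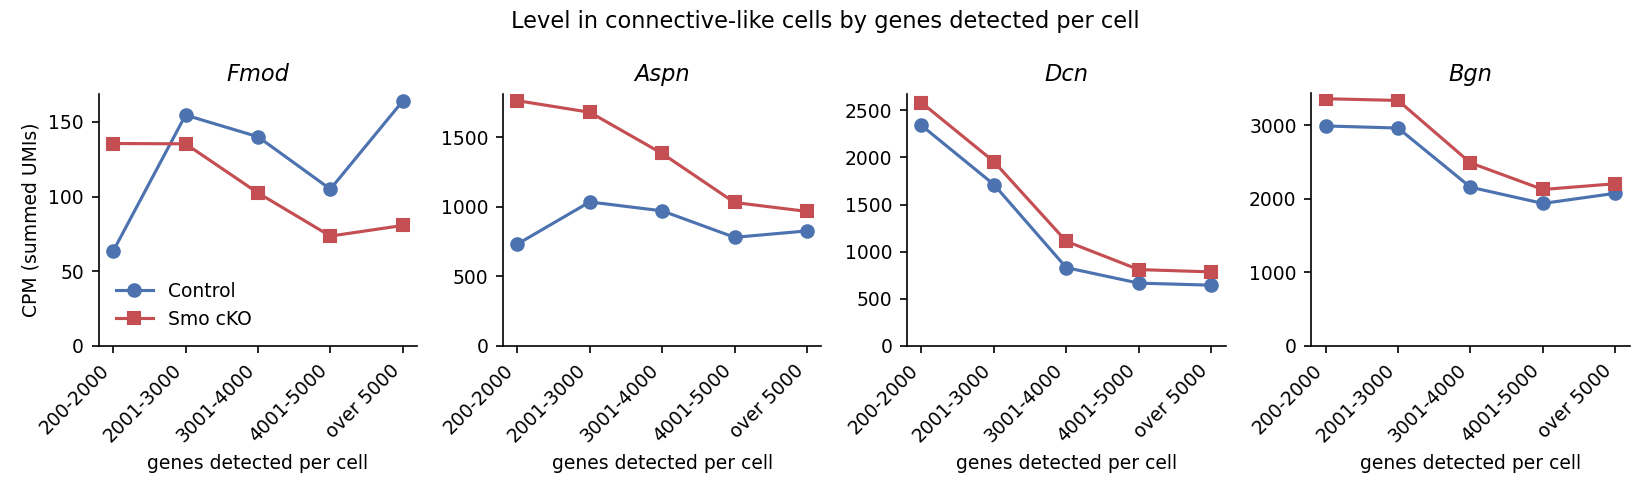
Level (CPM of summed UMIs) of Fmod, Aspn, Dcn and Bgn in connective-like cells binned by the number of genes detected, in the Control (circles) and Smo cKO (squares) libraries. The Fmod lines cross after the first bin, the gap between the Aspn lines narrows to the right, and the Smo cKO points lie above the Control points in every bin for Dcn and Bgn.

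The balance of Bgn to Dcn varied among classes, and in endothelial- and mural-like cells it also differed widely between the libraries. Connective-like cells held 2.17 Bgn UMIs for each Dcn UMI in Control and 2.19 in Smo cKO. Hematopoietic-like cells, which stand here for free RNA, held 3.84 and 3.62, so their balance was not that of connective-like cells. Muscle-like cells held 10.2 and 15.1, with Bgn at 379 and 667 CPM (log2 0.82, 0.70 to 0.93) beside Dcn at 37.2 and 44.3 CPM. Their Dcn level was below that of hematopoietic-like cells (47.5 and 56.3 CPM) while their Bgn level was above the 183 and 203 CPM found there, and their summed connective markers were alike, at 2324 and 2411 CPM. The thinned share of muscle-like cells with Bgn was 50.3% in Control and 65.1% in Smo cKO. In clustering, however, the muscle clusters did not all go this way. Bgn went from 657 to 928 CPM in that led by Cdh15 and Spats2l and from 603 to 562 CPM in that led by Acta1 and Mylpf. In that led by Peg3 and Spats2l, whose connective markers summed to 29168 CPM, Bgn went from 2190 to 2135 CPM.

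Mural-like cells had Bgn at the level of connective-like cells, 2359 CPM in Control and 2545 CPM in Smo cKO, from 53 and 58 cells. Their Dcn was at 299 and 827 CPM and their Aspn at 469 and 627 CPM, so the Bgn to Dcn ratio was 7.90 in Control and 3.08 in Smo cKO. Lum (120 and 256 CPM) and Ogn (89.5 and 168 CPM) were higher in the Smo cKO library as Dcn was, and Fmod was lower, at 57.6 and 27.3 CPM. Cells past both the mural and the connective gate were kept as mural-like and not left out as possible doublets. The summed connective markers of the mural-like cells were at 23138 and 24590 CPM and their 8 mural markers at 4162 and 4024 CPM. All 8 mural markers, on which these cells were gated, were detected in both libraries. In endothelial-like cells Dcn was lower in the Smo cKO library (log2 -1.42, -1.90 to -0.96, from 135 and 55 UMIs), which gave 1.42 and 4.16 Bgn UMIs for each Dcn UMI. In clustering, however, the 2 endothelial clusters went opposite ways for Dcn, from 628 to 152 CPM in that led by Ccl21a and Cldn5 and from 218 to 303 CPM in that led by Emcn and Fabp4. Bgn was at 284 and 312 CPM. Prelp was at 16.3 and 47.6 CPM, from 11 and 35 UMIs, against 2.16 and 1.59 CPM in hematopoietic-like cells. The 2 clusters went opposite ways for Prelp too. It went from 33.6 to 86.0 CPM in that led by Ccl21a and Cldn5 and from 9.34 to 3.06 CPM in the other. Aspn was at 35.6 and 39.5 CPM in endothelial-like cells, near the hematopoietic level.

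Epithelial- or mesothelial-like cells were few (11 and 29 cells) and had the highest Podn of any class, 238 CPM in Control and 164 CPM in Smo cKO, from 29 and 67 UMIs. Dcn reached 2492 and 2390 CPM there, while Lum (24.6 and 46.4 CPM) and Aspn (24.6 and 63.5 CPM) stayed near the hematopoietic level. In these cells Dcn was above Bgn, with 0.470 and 0.783 Bgn UMIs for each Dcn UMI.

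**Figure D5:**
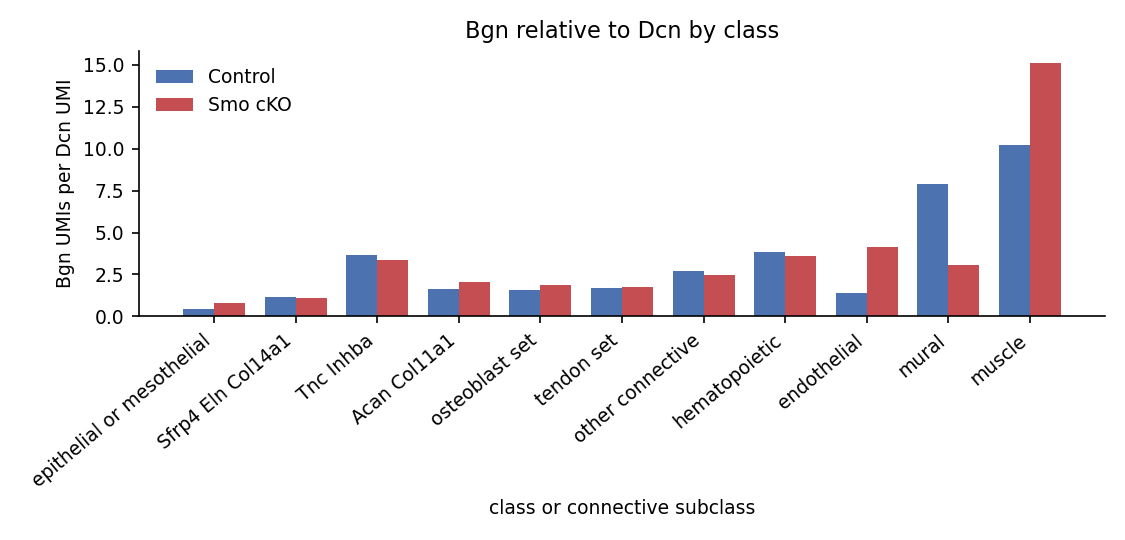
Bgn UMIs for each Dcn UMI by class and connective subclass, in the Control (blue) and Smo cKO (red) libraries, as bars from 0 without an error bar. The ratio is below 1 in epithelial- or mesothelial-like cells, between 1.07 and 3.68 in the 6 connective subclasses plotted (the Serpinb2 Dlk1 set is left out) and highest in muscle-like cells.

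Genes that build, bind or cut SLRPs were read from lists of known partners in connective-like cells. None of those at 50 CPM or more differed 2-fold, where 23 of all 2567 genes did (0.896%), so this is near the background. Below 50 CPM some partners did. Among them Mmp3 was lower, at 19.4 and 5.45 CPM, and Col2a1 (149 and 544 UMIs) and Kdr (227 and 488 UMIs) were higher in the Smo cKO library. Of 18 fibrillar collagens and binding partners, 16 reached that level, with a median log2 difference of -0.19 against 0.06 for all genes. Col1a1 went from 9526 to 8312 CPM, Col1a2 from 10648 to 9367 CPM, Col3a1 from 9676 to 8028 CPM and Col5a2 from 1357 to 1159 CPM. Of this list, Col1a1, Col1a2, Col3a1, Col5a1, Col6a3 and Fbn1 are markers on which connective-like cells were gated. Mmp2, among the proteases, is another, and Kdr is a marker of the endothelial gate. Not all collagens of the list were lower. Col11a1, a minor fibrillar collagen of cartilage, was at 131 and 149 CPM (log2 0.19), the highest difference of the 16. Of 22 enzymes of the linker and of chondroitin or dermatan sulfate, 3 reached 50 CPM, with a median of -0.25. Chpf, a chondroitin polymerizing factor, was at 107 and 89.5 CPM, Chsy1, a chondroitin synthase, at 61.4 and 57.6 CPM (log2 -0.09) and Dse, the epimerase that makes dermatan sulfate, at 50.1 and 42.1 CPM. Of 9 keratan sulfate enzymes only B4galt1 reached it, at 147 and 116 CPM.

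Of 14 processing proteases, 8 reached 50 CPM, with a median of 0.07. Pcolce, the enhancer of procollagen C-proteinase, was at 552 and 612 CPM, Mmp14 at 495 and 496 CPM, Mmp2 at 394 and 303 CPM and Bmp1, which cleaves the probiglycan propeptide, at 285 and 232 CPM. Of 20 receptors and ligands, 19 were found by name and 6 reached 50 CPM, with a median of 0.09. Cd44 was at 430 and 379 CPM, Lrp1 at 340 and 288 CPM, Wisp1 at 234 and 249 CPM and Tgfb2 at 231 and 264 CPM. Of 9 other SLRP family genes, 0 reached 50 CPM. Ecm2 was the highest of them, followed by Tsku (17.4 and 17.6 CPM), Podnl1 (8.90 and 13.3 CPM) and Epyc, a cartilage member (log2 0.84, 0.69 to 0.99, from 567 and 993 UMIs).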

How the data were processed

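Per the submitters' processing notes and the study's methods, the authors aligned reads to mm10 with Cell Ranger 3.0.2 and deposited UMI counts for each gene and barcode, not normalized. The chemistry (3′ or 5′ end) and the gene annotation release are not given in the sources used here. The counts were summed over cells and scaled to CPM. Kept cells had at least 200 genes and under 10% mt- UMIs, without the study's upper limit of 2000 genes, which 58.0% and 59.4% of kept cells exceed. Classes were gated on marker UMIs per 10000 UMIs (connective 60, hematopoietic 10, muscle 10, endothelial 8, mural 8, epithelial or mesothelial 3) with at least 3 distinct markers (mural 4). Connective sets were gated likewise, with at least 3 distinct markers, or 2 for the tendon and Serpinb2 Dlk1 sets. Gates were set after the marker distributions were seen, and the members, markers and lists were chosen with earlier results of these data known. Cells past several class gates (471 Control, 507 Smo cKO) were left out as possible doublets, and no doublet caller was run. Mural and epithelial or mesothelial gates went before connective. Of the gated connective cells, 76 Control and 117 Smo cKO cells lay within 1.5-fold of the gate. Ratios have the exact 95% interval for 2 Poisson counts. Differences were called at 2-fold among genes at 50 CPM or more in either library. All 10 members are reported in every class and set with at least 10 cells in both libraries. At most 4 genes of each partner list are given, those with the highest CPM. Col11a1 and the partners named as 2-fold changed below 50 CPM come in addition. The 3 genes most like each member other than Kera were named by Pearson's r of log2(CPM + 10). Louvain clusters (igraph 0.11.9, scikit-learn 1.9.0), made without the members, were an alternative to the gates, and 11321 of the gated connective cells fell in clusters named connective. The fold rule, intervals and thinning were tested on simulated data. Python 3.11.15, NumPy 2.4.6, SciPy 1.17.1 and pandas 2.3.3 were used.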

Additional observations from a re-analysis of the deposited data

Results flagged for a closer look

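Fmod differed between the libraries in opposite directions among the connective subclasses. The log2 difference of Smo cKO over Control was 0.87 in the Sfrp4 Eln Col14a1 fibroblast set, and -0.68 in the Tnc Inhba activated fibroblast set, -0.82 in the Acan Col11a1 skeletogenic set and -0.80 in the osteoblast set. In cells with at most 2000 genes Fmod was instead higher in the Smo cKO library in all 5 subclasses compared, among them the skeletogenic set (0.52) and the Tnc Inhba set (0.19, -0.32 to 0.70). With 1 library for each genotype this difference between subclasses was not tested.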

How the results depend on the processing

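No paired analysis was possible because each genotype is 1 library and no test was made. The summed SLRP log2 difference in connective-like cells (0.17) stayed above 0 under all 11 alternatives: 0.39 with at most 2000 genes a cell, 0.11 scaled by the median gene ratio, 0.18 without the deepest 5% of cells, 0.16 with cells past several gates kept and 0.16 with clusters in place of gates. Alternatives chosen after seeing the data gave 0.19 without shared barcodes, 0.19 with a connective gate of 100, 0.19 without cycling cells and 0.21 at the Control mix of subclasses. The limit of 2000 genes gave 2 members past 2-fold (Aspn and Fmod) in place of 0, and turned Fmod to 1.10 and Prelp to 0.45. The cause was not tested. No member changed sign in connective-like cells under any other alternative. Thinning to 1000 or 5000 UMIs moved the share of cells with Aspn to 49.8% and 63.7%, or 87.4% and 93.7%, in Control and Smo cKO. Kera and Omd rest on 63 to 329 UMIs in connective-like cells, and classes other than connective- and hematopoietic-like on few cells, so that their values carry wide counting intervals.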

Other observations

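SLRP levels in further ranges of connective-like cells are described here. Cells past the cell cycle gate (1252 in Control, 1284 in Smo cKO) had less SLRP RNA than the other connective-like cells of their library, 3765 against 5685 CPM in Control and 4282 against 6498 CPM in Smo cKO. Podn was at 4.29 against 15.6 CPM in Control and 4.33 against 7.92 CPM in Smo cKO, and Dcn was also lower in them, at 652 against 1269 CPM in Control and 747 against 1345 CPM in Smo cKO. Cycling cells were deeper, with a median of 20063 UMIs in Control and 21595.5 in Smo cKO.

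Cells with high Cxcl12, a chemokine of marrow stroma, numbered 455 (6.96% of connective-like cells) in Control and 131 (2.46%) in Smo cKO. High meant that the natural log of 1 plus Cxcl12 UMIs per 10000 UMIs was over 2. The Cxcl12-high cells had a median of 7577 UMIs in Control and 8166 in Smo cKO, against 10962.5 and 13848 in all connective-like cells. They had more Bgn (3321 and 3181 CPM), Dcn (1889 and 2133 CPM) and Podn (29.9 and 18.8 CPM) than the other connective-like cells, which held Bgn at 2288 and 2471 CPM, Dcn at 1039 and 1119 CPM and Podn at 11.2 and 6.47 CPM. Aspn was lower in them, at 491 and 929 CPM against 916 and 1256 CPM, and Fmod was at 30.2 and 39.1 CPM against 136 and 96.1 CPM. Connective-like cells with a tdTomato UMI, the reporter of the Sox9 lineage, numbered 48 (0.734%) in Control and 116 (2.18%) in Smo cKO. All kept cells held only 60 and 154 tdTomato UMIs, so cells of the lineage can be missed. The cells with a tdTomato UMI were deeper than all connective-like cells, with a median of 13950.5 and 20112.5 UMIs. They held Bgn at 1971 and 2316 CPM, Aspn at 809 and 1049 CPM and Fmod at 151 and 104 CPM. In the Serpinb2 Dlk1 set, 69 Smo cKO cells held Dcn at 1697 CPM and Bgn at 1675 CPM, nearly 1 to 1.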
